A study of Homo sapiens with 9 samples.

Results

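Chromosome 8 genes were followed along their position in 3 clones of the melanoma line SK-MEL-5, where the chromosome had been picked because its genes as a whole differed in level between the clones. The members were all genes of the count table that lie on chromosome 8 of GRCh38 and reached a level of at least 1 CPM (counts scaled to the size of each library) in at least 3 of the 9 libraries. They numbered 504 of the 2284 chromosome 8 genes in the table, which held 60675 genes in all. A further 952 chromosome 8 genes had 0 counts in all 9 libraries and 828 had counts but fell under the filter. Of the 504 members, 439 reached 1 CPM in all 9 libraries and 65 in fewer, among them 6 that reached it in SC01 libraries only, 1 in SC07 libraries only and 9 in SC10 libraries only. The member nearest above the filter was RNF5P1, a pseudogene whose libraries that passed ranged down to 1 CPM, and the gene nearest below it was EXTL3-AS1, an antisense gene whose library of the same rank stood at 0.976 CPM. By type, 430 members were protein-coding, 24 antisense and 16 lincRNA genes. The short arm, 8p, held 167 members and the long arm, 8q, held 337, with the arms divided at 45 Mb in the stretch around the centromere where no gene is annotated.

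Chromosome 8 is among the chromosomes most often altered in solid tumours, melanoma included. Much of the short arm is recurrently lost and carries several proposed tumour suppressors, while parts of the long arm, with MYC near its far end, are recurrently gained. The stretch of 8p close to the centromere, with FGFR1, is amplified in some cancers. The number of copies of a gene in a cell is one of the influences on how much of its RNA the cell holds, beside the activity of its promoter and the stability of its RNA. DNA copy number was not measured in the files used here, so its part in any difference below was not tested.

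SK-MEL-5 is an established human melanoma line with a mutated BRAF gene. The 3 groups, SC01, SC07 and SC10, are isogenic subclones, each grown from 1 cell by limiting dilution without drug, and the choice among subclones rested on the initial response to the BRAF inhibitor PLX-4720, whose outcome per clone the labels leave out. The cells of all 9 libraries, 3 per clone, were untreated, and no library of the parental line is among them, so the comparisons describe how the clones differed from each other. Each clone is a single line, and the labels do not say whether its 3 libraries came from separate cultures, so spread and calls cover these libraries only, and clone cannot be told apart from any batch of culture or extraction.

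Library totals ran from 30224066 to 39454087 counts, at which 3 counts correspond to 0.0760 to 0.0993 CPM, a floor that covers counting error only. SC10 replicate 3 stood apart from the other SC10 libraries, with chi-square values of 10.5 and 11.6 for each degree of freedom against them, where those 2 libraries differed by 2.56. Of 8 melanocytic markers, 7 had counts. Their summed level ran from 11540 to 12044 CPM in SC01, 23674 to 24454 in SC07 and 14903 to 15044 in SC10. The sum was mostly PMEL and DCT, while TYRP1 had means of 2394, 1212 and 702 CPM and S100B of 150.4, 105 and 133 CPM in SC01, SC07 and SC10. SOX10 had 0 counts in every library, and whether its RNA was absent or its reads went uncounted was not tested. The summed level of 4 keratinocyte markers lay between 21.5 and 26.4 CPM in all libraries and was nearly all KRT10, with KRT1 at 0. That of 6 fibroblast markers was 169 to 178 CPM in SC01, 423 to 490 in SC07 and 355 to 390 in SC10, mostly LUM, with COL1A2 at or under 0.132 CPM. Immune markers summed to at most 3.75 CPM and endothelial ones to at most 9.97 CPM. The part of these marker levels in the chromosome 8 differences was not tested, and in bulk RNA fewer cells of a kind and less RNA per cell cannot be told apart.

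As a whole, the chromosome was lowest in SC01, higher in SC07 and highest in SC10. The median log2 difference over the 504 members was 0.30 for SC07 against SC01 (quartiles -0.07 and 0.69), 0.46 for SC10 against SC01 (0.12 and 0.88) and 0.19 for SC10 against SC07 (-0.02 and 0.43). These medians equal 1.23-fold, 1.37-fold and 1.14-fold. Over all 18009 tested genes the median was -0.01 in each pair. These are the values the chromosome was chosen for, so they are a description, and the first and second share the SC01 libraries. In the single libraries, the median of the members against the SC01 mean was 0.29, 0.31 and 0.31 in SC07 and 0.48, 0.48 and 0.43 in SC10, the last being SC10 replicate 3. The 3 SC01 libraries lay between -0.01 and 0.01, and the ranges of the 3 clones did not overlap. The members took 2.61% ± 0.0144 (SD, n = 3) of all counts in SC01, 3.01% ± 0.00559 in SC07 and 3.37% ± 0.00835 in SC10.

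**Figure D1:**
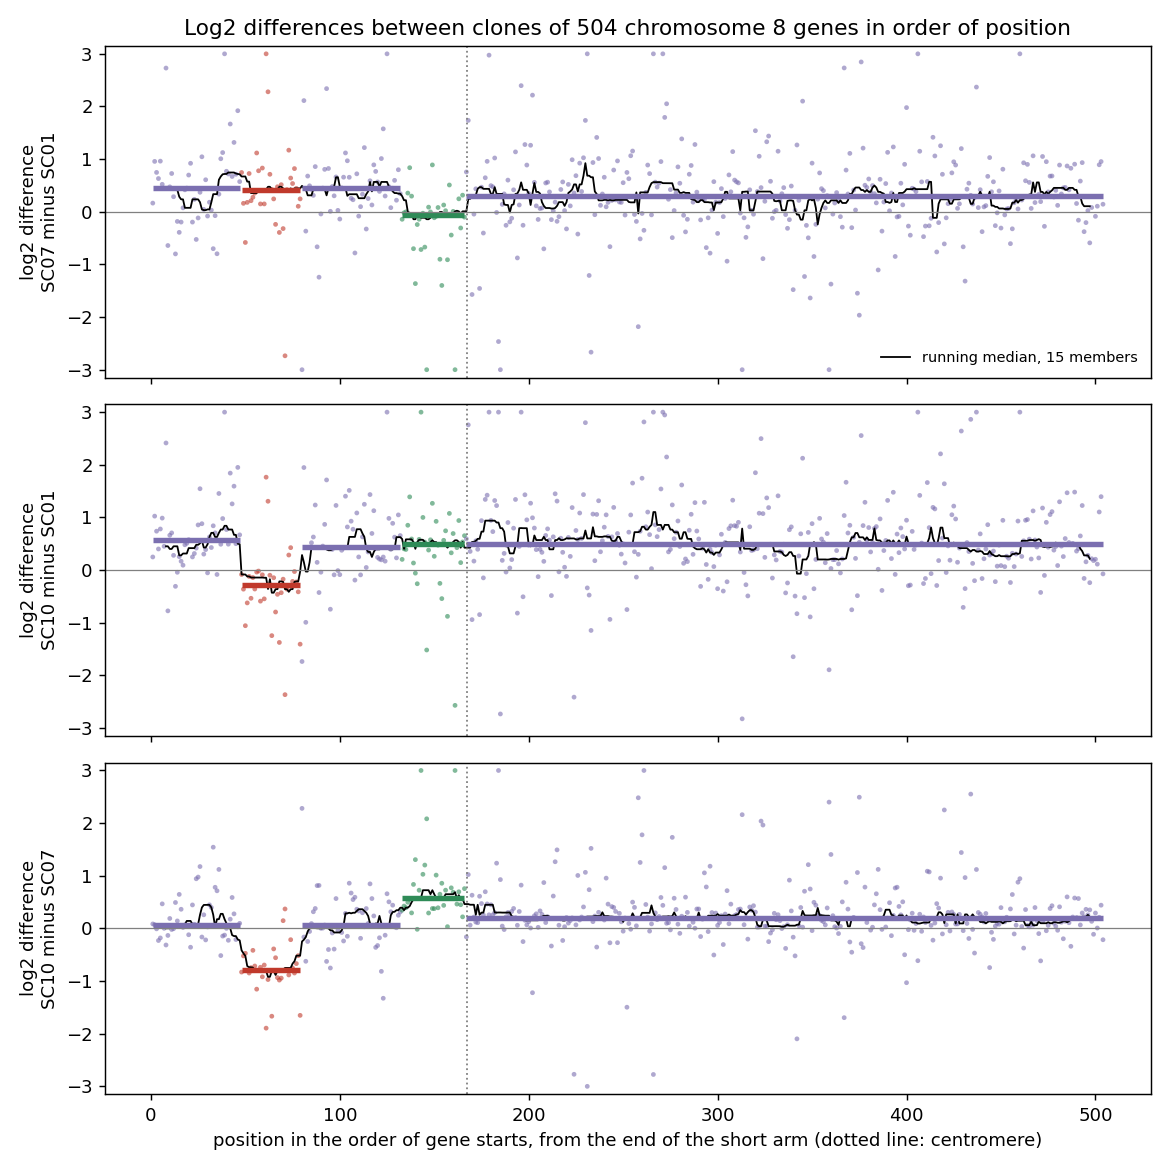
Log2 difference of each of the 504 members (points) in the order of gene starts from the end of the short arm (x axis), for the 3 pairs of clones (y axes), with a running median of 15 members (line), segment medians (bars) and the centromere (dotted line). The second segment (red) lies at -0.29 in SC10 against SC01 and -0.79 in SC10 against SC07, and the fourth (green) at -0.06 in SC07 against SC01. The purple bars of segments 1, 3 and 5 lie between 0.29 and 0.56 in both comparisons with SC01. Points past 3 are drawn at the limit (14, 11 and 5 in the panels from top to bottom).

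A gene is called higher or lower here when edgeR's quasi-likelihood test passes an adjusted p of 0.05 over all 18009 tested genes. Between SC07 and SC01, 291 members were called higher in SC07 and 80 lower, where 31.5% and 30.5% of all tested genes were called. Between SC10 and SC01, 345 were higher in SC10 and 67 lower, against 33.5% and 32.4% of all tested genes. Between SC10 and SC07, 240 were higher in SC10 and 78 lower, against 24.8% and 23.0%. Members whose libraries did not overlap numbered 304 higher and 95 lower in SC07 against SC01 (33.8% and 33.6% of all tested genes). The counts were 346 and 76 in SC10 against SC01 (34.6% and 34.4%) and 254 and 82 in SC10 against SC07 (27.4% and 26.0%). The contrast is the one the chromosome was chosen on, and nothing further is read from these counts. With library totals in place of TMM scaling, the median of all tested genes moved to -0.12 in both comparisons with SC01, and the members called became 253 higher and 109 lower for SC07 and 311 and 85 for SC10.

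The arms are given side by side, and a difference between them was not tested. SC07 stood above SC01 by a median of 0.31 on 8p and 0.29 on 8q, and SC10 above SC01 by 0.42 and 0.49. Between SC10 and SC07 the median was 0.07 on 8p (quartiles -0.24 and 0.48) and 0.20 on 8q (0.04 and 0.40). On 8q, 173 of 337 members were called higher in SC10 than in SC07 and 26 lower, while 8p held 67 higher and 52 lower of 167, where 24.8% of all tested genes were called higher and 23.0% lower. Restricted to members that overlap no other gene, the 8p median of that pair was -0.01. Of the other 21 autosomes, 2 had a higher median than chromosome 8 in SC07 against SC01 (chromosomes 4 and 18), 0 in SC10 against SC01 and 4 in SC10 against SC07. Their medians in the same order ran from -0.39 to 0.40, from -0.41 to 0.33 and from -0.34 to 0.30.

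Along the chromosome, the members fell into 5 stretches, set by the 2 dividing points that best fitted SC10 against SC07 and the 2 that best fitted SC07 against SC01, with at least 15 members a stretch. The points were placed on the same values they describe, so the segment medians are a description. The first segment ran from RPL23AP53 to NAT1 (47 members, 213186 to 18223689). The second began with CSGALNACT1 at 19404161 and ended before STC1 (32 members), and the third from STC1 to EIF4EBP1 (53 members, 23841915 to 38060365). The fourth ran from ASH2L to POMK (34 members, 38105242 to 43123434, 4.99 Mb). The fifth held HGSNAT at the end of 8p and all 337 members of 8q. The points removed 10.4% of the summed absolute deviation of the members in SC10 against SC07 and 2.54% in SC07 against SC01, so most of the spread between genes remained inside the segments. In SC10 against SC01, the 2 best points lay between NAT1 and CSGALNACT1 and between STC1 and NEFL, and removed 5.09%.

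In segments 1, 3 and 5 both SC07 and SC10 stood above SC01. Segment 1 had medians of 0.45 for SC07 against SC01, 0.56 for SC10 against SC01 and 0.07 for SC10 against SC07. Those of segment 3 were 0.45, 0.43 and 0.06, and those of segment 5 were 0.29, 0.49 and 0.20. Over the 438 members outside segments 2 and 4 the medians were 0.34, 0.49 and 0.19.

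**Figure D2:**
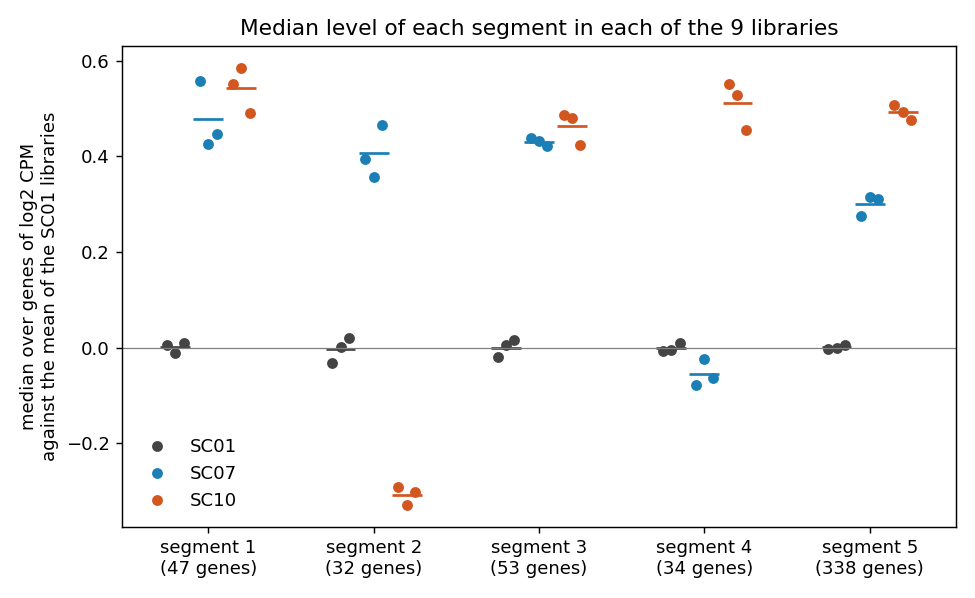
Median over the genes of a segment of the log2 CPM against the SC01 mean (y axis) in each of the 9 libraries (points, 3 per clone), by segment (x axis), with the mean of each clone (line). In segment 2 the SC10 libraries lie between -0.33 and -0.29 while the SC07 libraries lie between 0.36 and 0.47, and in segment 4 the SC07 libraries lie between -0.08 and -0.02.

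In segment 2, SC10 lay below both other clones. The segment was drawn on SC10 against SC07, and the other pairs share libraries with that pair. Its median was 0.42 for SC07 against SC01, -0.29 for SC10 against SC01 and -0.79 for SC10 against SC07, the last equal to 0.578-fold. Of its 32 members, 29 were called lower in SC10 than in SC07 and 0 higher, and 24 were called higher and 3 lower in SC07 than in SC01. The remaining 472 members held 49 called lower in SC10 than in SC07, or 10.4%, against 23.0% of all tested genes. In SC07 against SC01, 56.6% of the remaining members were called higher and 16.3% lower, against 31.5% and 30.5% of all tested genes. The segment's share of all counts was 0.144% ± 0.000626 in SC01, 0.198% ± 0.00284 in SC07 and 0.111% ± 0.00279 in SC10 (SD, n = 3). All 20 protein-coding members with at least 10 CPM in a clone were lower in SC10 than in SC07 with no overlap of libraries. That arrangement held for 26.0% of all tested genes, and the quartiles of the difference in the 20 were -0.86 and -0.71. Against SC01, 13 of these 20 were lower in SC10, 2 were higher and 5 passed in neither direction. Of all tested genes, 32.4% were called lower and 33.5% higher in that pair.

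Genes of segment 2 are given next, of which BIN3, CCAR2 and XPO7 were chosen after their values were seen, in a segment drawn on SC10 against SC07. BIN3, a BAR domain protein that binds membranes, measured 85.5, 85.3 and 85.3 CPM in SC01, 119.7, 120.0 and 126 in SC07 and 64.3, 61.3 and 64.6 in SC10. Its log2 difference was -0.94 ± 0.05 (SE) for SC10 against SC07, and the 3 clones did not overlap. CCAR2, a regulator of the deacetylase SIRT1, measured 58.6, 64.2 and 58.2 CPM in SC01, 84.9, 81.5 and 85.02 in SC07 and 45.04, 43.9 and 42.5 in SC10, again 3 separate ranges in the order SC10, SC01, SC07. XPO7, a nuclear transport receptor, measured 71.2, 69.9 and 67.8 CPM in SC01, 115, 114 and 117 in SC07 and 64.5, 69.8 and 57.9 in SC10. Its SC01 and SC10 libraries overlapped, and SC07 lay above both. RHOBTB2, a substrate adaptor of a ubiquitin ligase, stood at 22.3 ± 1.41 CPM for SC01, 29.9 ± 0.285 for SC07 and 17.3 ± 0.332 for SC10 (SD, n = 3).

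TNFRSF10B, the death receptor DR5 for the ligand TRAIL, measured 79.2, 78.2 and 78.1 CPM in SC01, 174, 172 and 185 in SC07 and 98.2, 97.6 and 91.5 in SC10. SC10 was thus above SC01 by 0.29 ± 0.05 and below SC07, with a log2 difference of -0.88 ± 0.05. SLC39A14, a zinc and manganese importer, measured 69.6, 67.2 and 67.96 CPM in SC01, 337, 324 and 333 in SC07 and 172, 174 and 161 in SC10. Against SC01 it stood far above its neighbours, at 2.28 in SC07 and 1.31 in SC10, while the difference between SC10 and SC07 was -0.97 ± 0.04. LGI3, a secreted leucine-rich repeat protein, showed 109.6, 114 and 112 CPM in SC01, 243, 234 and 252 in SC07 and 109, 106 and 113 in SC10, with SC01 and SC10 overlapping.

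ATP6V1B2, a subunit of the proton pump that acidifies lysosomes and melanosomes, differed from the other well expressed genes of segment 2. It measured 222, 223 and 231 CPM in SC01, 149, 149.8 and 153 in SC07 and 108, 113 and 105 in SC10, and so fell in both SC07 (-0.58 ± 0.04) and SC10 (-1.06 ± 0.04) against SC01. PIWIL2, an Argonaute family protein of germ cells, was low, at 0.493 ± 0.170 CPM for SC01, 6.28 ± 0.806 for SC07 and 1.68 ± 0.446 for SC10 (SD, n = 3). EGR3, an early growth response transcription factor, TNFRSF10C, a decoy receptor for TRAIL, and the transcript AC055854.1 were the 3 members of the segment not called in SC10 against SC07, with differences of 0.15 ± 0.21, -0.21 ± 0.13 and 0.37 ± 0.49. Reads of antisense and overlapping genes cannot be told apart without the strand setting, which is not given in the sources used here, so the values of AC037459.2 and AC037459.3 in this segment are uncertain.

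In segment 4, SC07 lay near SC01 and SC10 above both. Its median was -0.06 for SC07 against SC01, 0.50 for SC10 against SC01 and 0.57 for SC10 against SC07, the last equal to 1.49-fold. The first of these was -0.11 without SC01 replicate 2 and -0.02 without SC01 replicate 3. Of the 34 members, 8 were called higher and 12 lower in SC07 than in SC01, 24 higher and 5 lower in SC10 than in SC01, and 31 higher and 0 lower in SC10 than in SC07. For SC07 against SC01 these are 23.5% and 35.3% of the segment, near the 31.5% and 30.5% of all tested genes, where 60.2% and 14.5% of the 470 members outside the segment were called. For SC10 against SC01, 70.6% and 14.7% of the segment were called higher and lower. Outside it 68.3% and 13.2% were, and of all tested genes 33.5% and 32.4%. For SC10 against SC07, 91.2% were called higher in the segment and 44.5% outside it, against 24.8% of all tested genes. The segment was drawn on SC07 against SC01, and SC10 against SC07 uses the same SC07 libraries, so the shares of both pairs are a description. Among the segment's 27 protein-coding members with at least 10 CPM in a clone, all 27 were higher in SC10 than in SC07 without overlap. That arrangement held for 27.4% of all tested genes. The segment took 0.254% ± 0.00351 of counts in SC01, 0.235% ± 0.00126 in SC07 and 0.355% ± 0.00420 in SC10 (SD, n = 3).

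The genes of segment 4 named next were chosen after their values were seen. POLB, the DNA polymerase of base excision repair, measured 47.7, 47.8 and 48.9 CPM in SC01, 48.8, 48.02 and 49.7 in SC07 and 77.7, 78.8 and 85.9 in SC10. TM2D2, a small membrane protein, showed 49.7, 46.7 and 49.8 CPM in SC01, 48.99, 47.5 and 46.9 in SC07 and 94.9, 92.8 and 105 in SC10, a difference of 1.03 ± 0.05 between SC10 and SC07. In these genes the SC01 and SC07 libraries overlapped and the SC10 libraries lay above all others. IKBKB, a kinase that activates NF-kappaB, measured 90.1, 92.7 and 89.3 CPM in SC01, 99.3, 99.98 and 98.01 in SC07 and 135, 133 and 135 in SC10, 3 ranges that did not overlap, with SC07 called higher than SC01.

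Others stood apart in SC07. FGFR1, a receptor for fibroblast growth factors, measured 65.6, 71.6 and 71.9 CPM in SC01, 25.4, 28.997 and 26.7 in SC07 and 68.7, 67.9 and 64.1 in SC10. It was lower in SC07 than in SC01, with a log2 difference of -1.36 ± 0.06, while SC10 and SC01 overlapped. SFRP1, a secreted inhibitor of Wnt signalling, measured 42.5, 42.9 and 43.9 CPM in SC01, 3.41, 3.81 and 3.40 in SC07 and 15.3, 15.4 and 14.4 in SC10, so that SC07 lay lowest and SC10 below SC01. PLAT, tissue plasminogen activator, had the same order, at 278 ± 1.46 CPM for SC01, 106 ± 4.69 for SC07 and 191 ± 1.81 for SC10 (SD, n = 3). ADAM9, a membrane-bound metalloprotease, was lower in SC07 (181 ± 1.71 CPM) and higher in SC10 (417 ± 12.2) than in SC01 (288 ± 11.04). GPAT4, an enzyme of triglyceride synthesis, rose in both, with 349.8, 360.5 and 366 CPM in SC01, 666, 647 and 681 in SC07 and 853, 862 and 878 in SC10.

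PLEKHA2, a phosphoinositide-binding adaptor, was near 0 in SC01 and SC07. Its libraries held 5 counts over SC01, 3 over SC07 and 926 over SC10, or 9.29, 8.81 and 8.51 CPM in SC10. The ratio of SC10 to SC07 was 311, with an exact 95% interval of 106 to 1512 that covers counting error only. PLEKHA2 reached 1 CPM in SC10 libraries only and was a member through that clone alone, so the ratio is a description. CHRNA6, a nicotinic acetylcholine receptor subunit, was highest in SC01, with 8.79, 8.88 and 8.89 CPM in SC01, 0.183, 0.284 and 0.0597 in SC07 and 1.31, 1.54 and 1.62 in SC10.

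**Figure D3:**
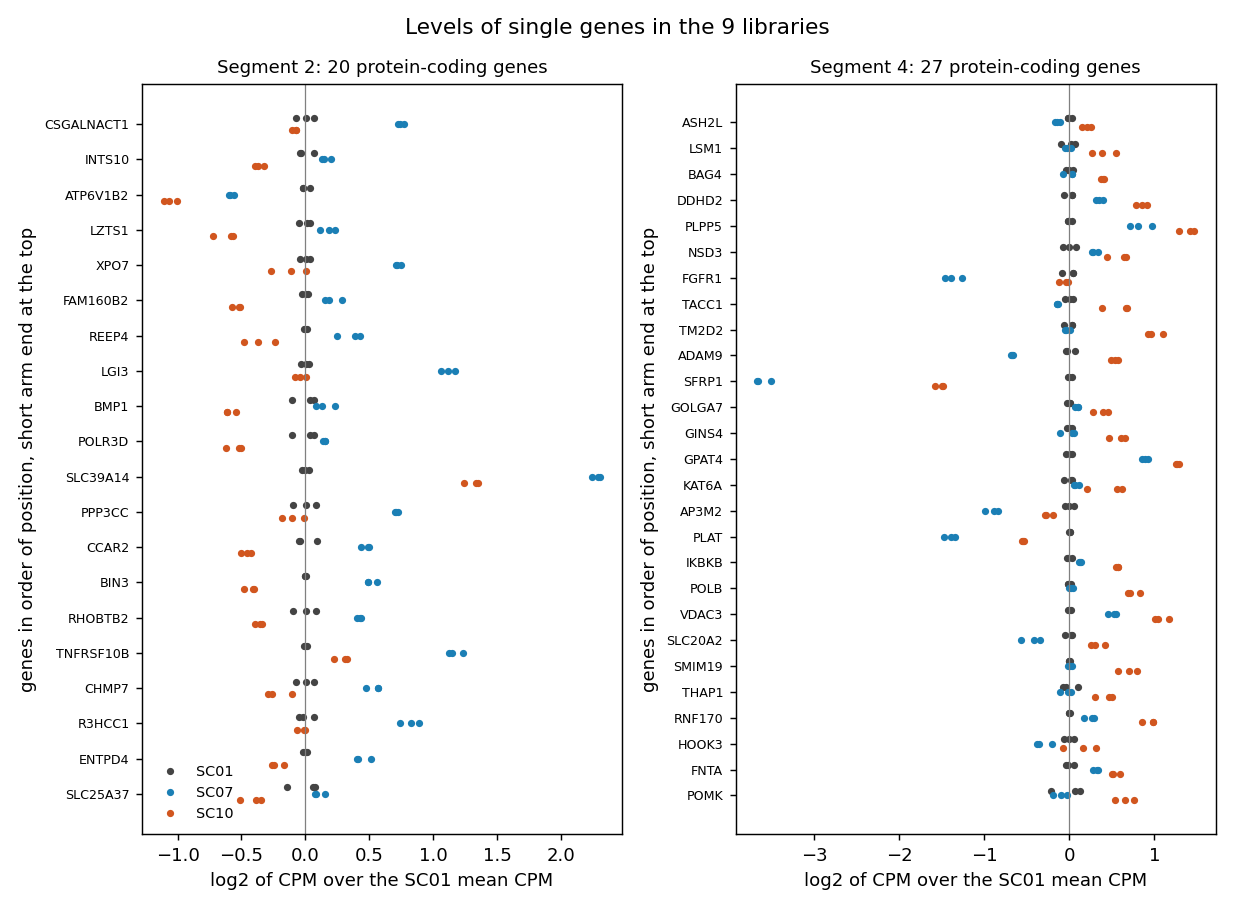
Log2 of CPM over the SC01 mean (x axes) of the protein-coding genes with at least 10 CPM in a clone in segment 2 (left, 20 genes) and segment 4 (right, 27 genes), in order of position (y axes), with a point for each of the 9 libraries. On the left every SC10 point lies to the left of the SC07 points of the same gene, and on the right every SC10 point lies to the right of them.

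The order of the 3 clone means differed by segment. Over all members, 243 of 504 (48.2%) had the graded order SC01, SC07, SC10 from low to high, against 20.9% of all tested genes, and in 132 of these the 9 libraries formed 3 separate ranges, an arrangement found in 8.70% of all tested genes. The order SC01, SC10, SC07 held for 80 members (15.9%, against 17.8% of all tested genes), 36 of them as separate ranges (5.96% of all tested genes), and SC07, SC01, SC10 for 70 (13.9% against 10.5%), 22 of them separate (2.58%). The order SC07, SC10, SC01 held for 56 (11.1% against 17.8%), with 26 separate (5.44%). SC10 was lowest with SC01 in the middle in 35 (6.94% against 10.4%), 17 of them separate (2.07%), and with SC07 in the middle in 20 (3.97% against 22.5%), 7 of them separate (7.10%). In segment 2 the graded order held for 0 of 32 members, and 23 had the order SC10, SC01, SC07, in 12 of them as 3 separate ranges. In segment 4, 15 of 34 members (44.1%) had the order SC07, SC01, SC10 and 12 (35.3%) the graded one. Outside these segments 231 of 438 members were graded and 12 had the order that prevailed in segment 2. By arm, the graded order held for 57 of 167 members on 8p (34.1%) and 186 of 337 on 8q (55.2%), 29 and 103 of them separate. In segment 1, 20 of 47 members were graded, 4 of them separate, and 15 had the order SC01, SC10, SC07, 8 of them separate.

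**Figure D4:**
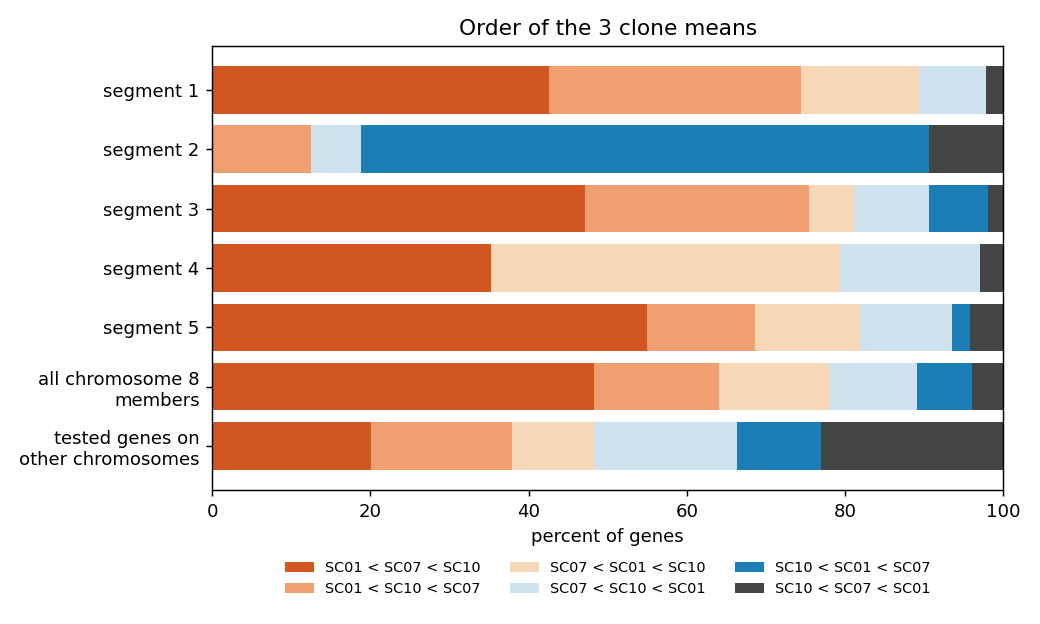
Percent of genes (x axis) with each of the 6 orders of the 3 clone means, for the 5 segments, all 504 members and the tested genes not placed on chromosome 8 (y axis). This last group, labelled as other chromosomes, includes 138 genes without a position. The order SC10, SC01, SC07 (blue) fills 71.9% of segment 2 and 10.6% of the genes not placed on chromosome 8. The graded order SC01, SC07, SC10 (dark orange) is missing from segment 2.

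The dividing points were placed on the values of the genes beside them, which are described here without a test. NAT1, an arylamine acetyltransferase and the last member of segment 1, stood at 2.93 ± 0.0314 CPM for SC01, 4.36 ± 0.179 for SC07 and 4.65 ± 0.228 for SC10 (SD, n = 3). CSGALNACT1, an enzyme of chondroitin sulfate synthesis and the next member, measured 16.5, 18.2 and 17.4 CPM in SC01, 28.98, 28.6 and 29.7 in SC07 and 16.5, 16.5 and 16.1 in SC10. SC10 thus stood with SC07 in the former and with SC01 in the latter, where SC10 and SC01 were not called apart. On the far side of segment 2, the first member of segment 3 was STC1. STC1, a secreted glycoprotein hormone, measured 6.40, 7.14 and 7.84 CPM in SC01, 0.518, 0.541 and 0.239 in SC07 and 2.40, 1.72 and 2.27 in SC10, with SC07 lowest and SC01 highest. The following member, NEFL, a neurofilament subunit, was high in SC07 and SC10, at 83.5 ± 1.64 and 74.5 ± 1.08 CPM against 19.4 ± 1.80 in SC01.

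At the near end of segment 4, EIF4EBP1, a repressor of cap-dependent translation, measured 119 ± 2.26 CPM for SC01, 151 ± 7.48 for SC07 and 187 ± 7.92 for SC10, and ASH2L, a subunit of histone H3 lysine methyltransferase complexes, 63.5, 63.7 and 66.1 CPM in SC01, 59.7, 58.1 and 57.3 in SC07 and 74.2, 71.7 and 76.8 in SC10. SC07 was above SC01 in the former and below it in the latter, with log2 differences of 0.34 ± 0.05 and -0.14 ± 0.05. At its far end, POMK, a kinase that acts on dystroglycan, was not called between SC07 and SC01 (-0.10 ± 0.09), and HGSNAT, a lysosomal acetyltransferase, was higher in SC07 by 0.76 ± 0.05. The placing of these ends depended on single libraries. Without SC01 replicate 1 or SC01 replicate 2 the near end fell at 38.4 Mb instead of 38.1, next to NSD3. The far end fell at 43.03 Mb instead of 43.14 without SC01 replicate 1 or 3, SC07 replicate 1 or 2, or SC10 replicate 2 or 3.

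Fixed windows of 10 Mb, which do not depend on the values, gave the values at lower resolution. In SC10 against SC07 the lowest window was 20 to 30 Mb, at -0.47 over 55 members, and with windows of 5 Mb it was 20 to 25 Mb, at -0.77 over 32 members. In SC07 against SC01 the lowest was 40 to 50 Mb, at -0.00 over 29 members, where SC10 stood above SC07 by 0.57. With windows of 5 Mb the lowest of that pair lay on 8q, at 80 to 85 Mb (-0.042 over 12 members), and the next at 40 to 45 Mb (-0.020 over 22 members). The window medians of 8q from 50 Mb on ran from 0.15 to 0.50 in SC07 against SC01, from 0.21 to 0.85 in SC10 against SC01 and from 0.04 to 0.33 in SC10 against SC07. The highest of SC10 against SC01 was 50 to 60 Mb (26 members) and the lowest 110 to 120 Mb (12 members).

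In the gene lists that follow, the counts are of members called higher and lower. Of all tested genes, 31.5% and 30.5% were called so in SC07 against SC01. The shares were 33.5% and 32.4% in SC10 against SC01 and 24.8% and 23.0% in SC10 against SC07. Of the 504 members they were 57.7% and 15.9%, 68.5% and 13.3%, and 47.6% and 15.5% in the same order. Among genes of 8p proposed as tumour suppressors, 18 of 25 listed were members. In SC07 against SC01, 13 rose and 3 fell, with a median of 0.51, and in SC10 against SC01, 12 rose and 5 fell, with a median of 0.49. Between SC10 and SC07, 6 were higher and 7 lower, with a median of -0.01. MTUS1, a microtubule-associated protein of segment 1, rose from 36.6 ± 0.813 CPM in SC01 to 91.1 ± 1.56 in SC07 and 110.3 ± 7.99 in SC10 (SD, n = 3). TUSC3, a subunit of the N-glycosylation machinery, was highest in SC07 (63.8 ± 0.459 CPM) and lower in SC10 (44.6 ± 2.81) and SC01 (31.7 ± 2.09). LZTS1, a leucine zipper protein of segment 2, measured 273, 284 and 289 CPM in SC01, 319.8, 305 and 332 in SC07 and 190.1, 188 and 171 in SC10.

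Of the same list, CSMD1, a membrane protein with complement control domains, fell in both SC07 (-0.64 ± 0.09) and SC10 (-0.77 ± 0.09) against SC01. DLC1, a GTPase-activating protein, measured 38.5, 37.5 and 38.1 CPM in SC01, 21.7, 21.2 and 22.7 in SC07 and 38.6, 38.1 and 30.98 in SC10, so that SC07 lay below the other clones, which overlapped. BNIP3L, a mitophagy receptor, measured 39.96 ± 0.204 CPM for SC01, 72.4 ± 1.11 for SC07 and 94.1 ± 1.67 for SC10 (SD, n = 3), 3 separate ranges in the graded order. RHOBTB2 of segment 2 fell in SC10 against both clones.

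Among 8p genes near the centromere that are amplified in some cancers, 25 of 28 listed were members. Against SC01, 9 rose and 9 fell in SC07 (median -0.00), and 20 rose and 2 fell in SC10 (median 0.57). In SC10 against SC07, 23 rose and 0 fell, with a median of 0.50, and the 2 not called were ADGRA2 and BRF2, which lie in segment 3. The list overlaps segment 4, which was drawn on these values. NSD3, a histone methyltransferase, measured 94.5, 89.2 and 85.2 CPM in SC01, 109, 113 and 108 in SC07 and 143, 140.4 and 122 in SC10. KAT6A, a histone acetyltransferase, measured 108, 107 and 101 CPM in SC01, 109, 111 and 114 in SC07 and 161, 155 and 122 in SC10. In both, SC10 replicate 3 was the lowest SC10 library and still above the SC07 libraries.

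Genes of 8q often gained in cancers had 31 members of 33 listed. In SC07, 18 rose and 8 fell against SC01 (median 0.24), in SC10, 23 rose and 5 fell against SC01 (0.36), and 17 were higher and 1 lower in SC10 than in SC07 (0.22). With library totals as the scaling, 16 rose and 12 fell in SC07 against SC01, with a median of 0.13. MYC, a transcription factor that drives growth, lay the other way. It measured 261, 272 and 276 CPM in SC01, 218, 217 and 235 in SC07 and 227, 217 and 213 in SC10. The log2 difference against SC01 was -0.27 ± 0.04 in SC07 and -0.30 ± 0.04 in SC10, with no overlap, and -0.02 ± 0.04 between SC10 and SC07, which overlapped. PVT1, the long non-coding gene next to it, was also lower in both, at 21.2 ± 0.856 CPM for SC01, 15.6 ± 0.303 for SC07 and 17.4 ± 0.503 for SC10 (SD, n = 3).

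Other 8q genes of the list fell in both clones as well. NDRG1, a stress-response protein, had differences of -0.47 in SC07 and -0.26 in SC10, AZIN1, which protects ornithine decarboxylase from its inhibitor, -0.31 and -0.24, and PABPC1, the main poly(A)-binding protein, -0.12 and -0.15. TRPS1, EXT1 and BOP1 were called lower than SC01 in SC07 only, with differences of -1.37, -0.29 and -0.28. TPD52, a vesicle-trafficking protein, rose in both, measuring 29.4, 28.6 and 27.2 CPM in SC01, 62.7, 63.5 and 63.3 in SC07 and 86.2, 87.05 and 94.7 in SC10. PTK2, the focal adhesion kinase, measured 80.4, 80.6 and 85.02 CPM in SC01, 136, 138 and 137 in SC07 and 169.8, 176 and 164 in SC10. LYN, a SRC family kinase, measured 21.8, 22.5 and 24.97 CPM in SC01, 34.7, 34.8 and 35.5 in SC07 and 43.6, 42.7 and 43.1 in SC10. These last 3 genes each formed 3 separate ranges in the graded order.

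A broad list for translation and the ribosome had lower medians than the chromosome in both comparisons with SC01. It also held PUF60, POLR2K and LSM1, which are not ribosomal proteins or translation factors, and EIF4EBP1, a repressor of translation. The members that rose in SC07 against SC01 were EIF3E, UTP23, EIF4EBP1, PUF60 and POLR2K. Of 15 members, 5 rose and 2 fell in SC07 against SC01 with a median of -0.02, 11 rose and 1 fell in SC10 against SC01 (0.20), and 9 rose and 0 fell in SC10 against SC07 (0.23). With library totals as the scaling, 3 rose and 7 fell in SC07 against SC01 (median -0.13), so that the balance of calls turned, and 7 rose and 3 fell in SC10 against SC01 (0.09). RPL8, a protein of the large ribosomal subunit, measured 1113, 1148 and 1151 CPM in SC01, 1155, 1097 and 1213 in SC07 and 1386, 1291 and 1462 in SC10. EIF3E, a subunit of translation initiation factor eIF3, stood at 277 ± 5.05 CPM for SC01, 327 ± 16.3 for SC07 and 389 ± 17.4 for SC10 (SD, n = 3). YWHAZ, a 14-3-3 adaptor protein outside this list, measured 959, 929 and 927 CPM in SC01, 954, 942 and 922 in SC07 and 1145, 1127 and 1167 in SC10, so that SC01 and SC07 overlapped and SC10 lay above.

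Mitochondrial genes had higher medians than the chromosome in both comparisons with SC01. Of 23 members, 21 rose and 1 fell in SC07 against SC01 (median 0.86), 22 rose and 1 fell in SC10 against SC01 (0.89), and 15 were higher and 2 lower in SC10 than in SC07 (0.20). CYC1, cytochrome c1 of respiratory complex III, measured 192, 199 and 205 CPM in SC01, 414, 390.3 and 441 in SC07 and 432, 420.2 and 448 in SC10. UQCRB, of the same complex, stood at 128 ± 4.73 CPM for SC01, 282 ± 3.01 for SC07 and 320.3 ± 36.04 for SC10, and NDUFB9, of complex I, at 95.03 ± 1.55 CPM for SC01, 223 ± 5.24 for SC07 and 265 ± 23.5 for SC10 (SD, n = 3). DECR1, an enzyme of fatty acid oxidation, measured 30.8, 30.7 and 32.6 CPM in SC01, 85.1, 82.4 and 78.3 in SC07 and 92.7, 91.7 and 104 in SC10. The members that fell against SC01 were PDP1, a pyruvate dehydrogenase phosphatase, which fell in SC07 (-0.68 ± 0.04), and SLC25A37, a mitochondrial iron importer of segment 2, which fell in SC10 against both SC01 (-0.41 ± 0.06) and SC07 (-0.52 ± 0.06). The other member lower in SC10 than in SC07 was MSRA, a methionine sulfoxide reductase (-0.36 ± 0.08), which rose in both clones against SC01.

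Genes of DNA replication, repair and cohesion had 23 members. In SC07 15 rose and 0 fell (median 0.36), in SC10 21 rose and 1 fell against SC01 (0.45), and 9 were higher and 4 lower in SC10 than in SC07 (0.12). ESCO2, which acetylates cohesin, measured 19.5, 19.3 and 16.4 CPM in SC01, 93.2, 95.5 and 90.6 in SC07 and 59.7, 59.04 and 62.2 in SC10, 3 separate ranges with SC07 highest. MCM4, a subunit of the replicative helicase, stood at 200.2 ± 2.62 CPM for SC01, 271 ± 5.97 for SC07 and 294 ± 3.29 for SC10, and RAD21, a cohesin subunit, at 213 ± 3.12 CPM for SC01, 275 ± 1.63 for SC07 and 276 ± 3.44 for SC10 (SD, n = 3). PRKDC, the catalytic subunit of DNA-dependent protein kinase, was called in no pair, with 783, 794 and 606 CPM in the SC10 libraries. Without SC10 replicate 3 it was called higher in SC10, by 0.29 against SC01 and 0.34 against SC07, and it was also called in both with no filter on low counts, at 0.18 and 0.21. The member that fell in SC10 was CCNE2, cyclin E2, with -0.40 ± 0.14 against SC01.

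Genes of lysosomes, endosomes and membrane traffic had 24 members of 27 listed. In SC07 16 rose and 2 fell against SC01 (median 0.53), in SC10 18 rose and 4 fell (0.59), and between SC10 and SC07 9 rose and 5 fell (0.09). With library totals as the scaling, 15 rose and 4 fell in SC07 against SC01. ASAH1, acid ceramidase, measured 106, 108 and 115 CPM in SC01, 421, 424 and 398 in SC07 and 422, 413 and 436 in SC10. ATP6V1H, a proton pump subunit of 8q, rose in both clones, measuring 58.2, 64.2 and 61.4 CPM in SC01, 122, 115 and 120.2 in SC07 and 161, 156 and 175 in SC10, while ATP6V1B2 of segment 2 fell in both. CTSB, cathepsin B, was called in no pair, at 392.1 ± 9.33 CPM for SC01, 371 ± 16.5 for SC07 and 378 ± 7.51 for SC10 (SD, n = 3).

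Of 33 listed signalling genes, 22 were members. In SC07 14 rose and 7 fell against SC01 (median 0.39), in SC10 16 rose and 4 fell (0.39), and 12 were higher and 4 lower in SC10 than in SC07 (0.31). DUSP4, a phosphatase that acts on ERK, measured 163, 158 and 162 CPM in SC01, 307, 308 and 329 in SC07 and 285, 288 and 278 in SC10. NOV, a matricellular protein also named CCN3, measured 19.7, 18.4 and 21.02 CPM in SC01, 33.5, 34.3 and 34.7 in SC07 and 62.5, 61.2 and 64.4 in SC10, in the graded order. TRIB1, a pseudokinase, was highest in SC07, at 31.997 ± 2.05 CPM for SC01, 59.7 ± 0.596 for SC07 and 42.2 ± 1.93 for SC10 (SD, n = 3).

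Transcription and chromatin genes had 22 members of 29 listed. In SC07 9 rose and 6 fell against SC01 (median 0.15), in SC10 11 rose and 6 fell (0.30), and 9 were higher and 5 lower in SC10 than in SC07 (0.18). The lower calls were 27.3%, 27.3% and 22.7% of the list in the 3 pairs, near the 30.5%, 32.4% and 23.0% of all tested genes. The higher calls were 40.9%, 50% and 40.9%, against 31.5%, 33.5% and 24.8% of all tested genes. With library totals as the scaling, the medians against SC01 were 0.04 and 0.18. SNAI2, a repressor of epithelial genes that acts in the neural crest lineage, measured 90.3, 87.004 and 89.7 CPM in SC01, 31.8, 33.1 and 32.4 in SC07 and 51.1, 49.9 and 47.5 in SC10. CEBPD, a stress-induced transcription factor, followed the same order, at 31.1 ± 0.233 CPM for SC01, 10.5 ± 1.10 for SC07 and 16.2 ± 1.86 for SC10 (SD, n = 3). GATA4, a transcription factor gene of segment 1, measured 13.2, 11.9 and 12.7 CPM in SC01, 25.6, 25.3 and 27.1 in SC07 and 24.03, 22.8 and 22.8 in SC10. EYA1, a transcriptional coactivator and phosphatase, was high in SC07, with 1.07, 1.17 and 1.23 CPM in SC01, 9.07, 9.36 and 9.73 in SC07 and 0.817, 1.25 and 0.679 in SC10. HEY1, a target of Notch signalling, was highest in SC07 and lowest in SC10, at 18.5 ± 1.66 CPM for SC01, 31.2 ± 1.65 for SC07 and 11.02 ± 0.619 for SC10. SOX17 held 7 counts over SC01, 1 over SC07 and 226 over SC10, a ratio of SC10 to SC07 of 228 (exact 95% interval 40.5 to 9041, counting error only). SOX17 too was a member through SC10 libraries only, so its ratio is a description.

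The 15 listed zinc finger genes of 8q included 3 that rose and 2 that fell in SC07 against SC01, with a median of 0.05, which became -0.05 with library totals as the scaling. In SC10 9 rose and 1 fell against SC01 (0.22), and 9 rose and 0 fell against SC07 (0.21). With library totals, 5 rose and 2 fell in SC10 against SC01, with a median of 0.10. ZNF252P, a zinc finger pseudogene, rose by 0.89 ± 0.06 in SC07 and 1.10 ± 0.06 in SC10 against SC01. ZNF517 fell in SC07, with a log2 difference of -0.59 ± 0.10.

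A few members moved far beyond the chromosome's shift. ZNF703, a transcriptional corepressor in segment 3, measured 30.1, 29.8 and 32.6 CPM in SC01, 257, 251 and 269.6 in SC07 and 417, 413 and 397 in SC10. RGS20, which switches off G protein signals, measured 9.12, 10.4 and 10.4 CPM in SC01, 77.3, 77.996 and 79.6 in SC07 and 93.1, 89.9 and 98.1 in SC10. ZDHHC2, a palmitoyltransferase, stood at 3.10 ± 0.0863 CPM for SC01, 27.2 ± 0.865 for SC07 and 24.9 ± 1.68 for SC10 (SD, n = 3). KCNQ3, a potassium channel subunit, had 0.618 ± 0.311 CPM for SC01, 14.05 ± 1.27 for SC07 and 9.19 ± 1.11 for SC10. CA2, a carbonic anhydrase, was near 0 in SC01, with 0.137, 0.0948 and 0 CPM in SC01, 5.82, 5.23 and 5.49 in SC07 and 6.87, 7.002 and 8.54 in SC10. In all 5 genes SC07 and SC10 lay above every SC01 library.

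In the other direction, MATN2, a matrix protein, fell in both clones, with 98.3, 94.2 and 94.6 CPM in SC01, 3.35, 2.81 and 2.93 in SC07 and 12.4, 13.7 and 14.5 in SC10. SNTB1, a dystrophin-associated scaffold protein, had the same order, at 48.1 ± 1.57 CPM for SC01, 16.5 ± 0.923 for SC07 and 34.3 ± 1.46 for SC10 (SD, n = 3). PAG1, a membrane adaptor that recruits the kinase CSK, was low in SC07, with 121, 109.7 and 102 CPM in SC01, 23.6, 24.8 and 24.9 in SC07 and 142, 149.7 and 118 in SC10. FABP5, a fatty acid carrier, was high in SC10, with 41.4, 37.8 and 41.4 CPM in SC01, 40.9, 38.5 and 38.6 in SC07 and 127, 130.3 and 148 in SC10. MMP16, a membrane-bound matrix metalloprotease, was also highest in SC10, at 10.6 ± 1.42 CPM for SC01, 7.53 ± 1.68 for SC07 and 25.1 ± 1.56 for SC10. CTHRC1, a secreted collagen triple helix protein, was highest in SC07 and lowest in SC10, at 3.19 ± 0.480 CPM for SC01, 7.68 ± 0.685 for SC07 and 1.79 ± 0.226 for SC10. LY6E, a GPI-anchored surface protein, had that order too, with 608, 650.2 and 644 CPM in SC01, 757, 733 and 798 in SC07 and 556, 539 and 560.0 in SC10.

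The medians were also taken by level, type and strand of the genes. In groups of 168 members by mean CPM, from low to high, the median for SC07 against SC01 was 0.14, 0.34 and 0.38, that for SC10 against SC01 0.35, 0.45 and 0.52, and that for SC10 against SC07 0.22, 0.14 and 0.20. Protein-coding members had medians of 0.34, 0.46 and 0.19 in the 3 pairs, and the other 74 members 0.09, 0.40 and 0.19. Members on the plus strand had 0.34, 0.51 and 0.18 and those on the minus strand 0.25, 0.40 and 0.20. Of the genes tested on chromosome 8, 128 lay under the members' filter. Their medians were 0.05, 0.26 and 0.17 in the 3 pairs. For SC10 against SC07, the 6 of them inside segment 2 had a median of -0.66, with 2 above 0. The 7 inside segment 4 had a median of 0.62 in that pair, with 6 above 0. Against SC01, the 6 of segment 2 had medians of 0.05 in SC07 and -0.91 in SC10. The 75 inside segment 5 had medians of -0.0004, 0.09 and 0.31 in the 3 pairs.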

How the data were processed

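RNA-seq counts per gene of 9 libraries, 3 per clone, were used as deposited by the authors: whole-number counts, not normalized. Per the submitters' processing notes, the tools were HISAT2 and featureCounts and the build GRCh38; versions, annotation release and strand setting are not given there or in the labels. Gene positions came from GENCODE 29 (GRCh38), which held 57055 of the 60675 gene IDs; 3620 were not placed, of which 138 were tested.

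Genes passing filterByExpr (18009) were TMM-scaled and entered, with all 9 libraries, into the robust quasi-likelihood test of edgeR 4.0.16 in R 4.3.3, with p-values adjusted by Benjamini-Hochberg over all tested genes. Printed CPM are TMM-scaled, and errors of CPM are SDs over 3 libraries. Errors of log2 differences, given as SE, are the absolute difference divided by the square root of the F statistic of its test. Library medians used log2 CPM with a prior count of 2. Dividing points minimized the summed absolute deviation of members from segment medians. The scripts were tested on simulated data. Alternatives covered scaling, filters, biotype, overlap, DESeq2 1.42.0, limma 3.58.1, windows and left-out libraries.

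The chromosome, members and gene lists were chosen with earlier results of these data known. Genes were named by fixed terms: the largest differences per pair, the genes farthest from the median of their window, the most abundant members, those beside dividing points, and members of each list with the largest difference, near the list median or against its direction. Not every gene that met these terms is described. Those left out include RPL7, RPS20, LAPTM4B and SDCBP of the most abundant, and DOCK5 and RNF122 of segment 3. DOCK5 had a log2 difference of -0.99 for SC10 against SC01. RNF122 lay at -1.18 from the median of its window for SC10 against SC07. MYC, FGFR1, PTK2, SNAI2, PRKDC and LYN were named whatever their result. Further genes of segments 2 and 4 (among them POLB, TM2D2, IKBKB, BIN3, CCAR2 and XPO7) and some list members were chosen after their values were seen. Same-numbered libraries of different clones had correlations of deviations between -0.02 and 0.043, so the numbers were not taken to pair the samples. The results of 1 member of segment 2 are not reported here.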

Additional observations from a re-analysis of the deposited data

How the results depend on the processing

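With library totals as the scaling, the median of SC07 against SC01 was 0.19 over the members, 0.21 on 8p, 0.18 on 8q and -0.17 in segment 4, and that of SC10 against SC01 was 0.34, 0.31 and 0.38 over members, 8p and 8q. The median of all genes moved by a like amount (-0.12 in both). Upper quartile scaling gave 0.28, 0.29 and 0.27 for SC07 against SC01, and 0.39 on 8p and 0.47 on 8q for SC10 against SC01. Members at 0.5 CPM gave 0.33 on 8p for SC07 against SC01 and 0.47 on 8q for SC10 against SC01. Members at 5 CPM gave 0.34, 0.35 and 0.34 for SC07 against SC01, -0.020 in its segment 4, and 0.031 on 8p for SC10 against SC07. Protein-coding members gave 0.34, 0.35 and 0.33 for SC07 against SC01 and -0.028 in segment 4. Centring on tested genes not placed on chromosome 8 gave 0.32 and 0.33 over members and 8p for SC07 against SC01, and 0.44 on 8p and 0.52 on 8q for SC10 against SC01.

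Members that overlap no other gene, 148 in number, gave 0.33, 0.35 and 0.32 for SC07 against SC01, 0.36 on 8p and 0.47 on 8q for SC10 against SC01, and 0.16 over members for SC10 against SC07. On 8p that last pair turned to -0.013, and the cause was not tested. By their smaller number, the calls were 92 higher and 25 lower, 98 and 26, and 70 and 28 in the 3 pairs, and 69 were in the graded order. A test against a 1.5-fold change called 115 higher and 31 lower, 158 and 22, and 50 and 28.

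Leaving out each library in turn gave SC07 against SC01 medians of 0.30 to 0.32 over members, 0.30 to 0.33 on 8p and -0.11 to -0.023 in segment 4, and 0.055 to 0.098 on 8p for SC10 against SC07. The dividing points of SC07 against SC01 then began at 38.1 to 38.4 Mb and at 43.03 to 43.14 Mb, and the second of SC10 against SC01 at 24.95 to 25.43 Mb. With members at 5 CPM the second point of SC07 against SC01 was at 47.96 Mb. Placing 4 points on both differences against SC01 jointly, an alternative chosen after seeing the data, put 2 of them at 25.43 and 43.03 Mb. Windows of 5 and 20 Mb had lowest medians of -0.77 and -0.027 for SC10 against SC07 and -0.042 (on 8q, away from segment 4) and 0.088 for SC07 against SC01.

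With the replicate number as a block, which was not taken to pair the samples, the calls were 292 higher and 82 lower, 345 and 70, and 243 and 80 in the 3 pairs, and 261 of 267 gene differences stayed on the same side of the threshold. Of 267 differences of 89 genes examined one by one, 144 kept their call, or the lack of it, under every alternative. Among the differences called under the main setting, 0 reversed in direction. The direction of differences not called was not checked. Depth limits genes with few counts: 5 members had under 10 counts over a clone.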
